A study of Saccharomyces cerevisiae with 28 samples.

Results

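The genes described here are 32 yeast genes of the peroxisome and of fatty acid oxidation, chosen by gene symbol from the platform annotation. All 32 had a probe set of their own, among 5656 genes with at least 1 single-gene probe set. POX1 had 4 such probe sets and the other 31 genes had 1, and the probe set with the highest mean level stood for POX1. Transcript levels came from 28 single-colour Affymetrix arrays of Saccharomyces cerevisiae cells in log phase. RM, a vineyard strain, and BY, a strain isogenic to the reference S288C, were each measured as diploids and as haploids (3 arrays per group). Hybrid diploids from BYxRM crosses gave 6 arrays and mixtures of BY and RM mRNA in equal parts gave 6. A further 2 arrays came from diploids made by crossing segregants and 2 from segregants of the BY and RM cross, and each of these 4 may be another genotype. The labels name neither the medium nor the mating types, marker mutations or number of cultures, and the p-values below therefore cover no more than the scatter of these arrays, part of which may be technical.

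In yeast, beta-oxidation of fatty acids takes place in peroxisomes and not in mitochondria. Enzymes made in the cytosol are brought into the organelle by peroxins, the products of the PEX genes. On oleate, a pair of zinc cluster transcription factors, Oaf1 and Pip2, binds oleate response elements before many of these genes, and glucose represses them, partly through the loss of active Adr1.

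All values are log2 levels per probe set as deposited, and differences are on the same scale. Levels of different genes are not set against each other, since each probe set has its own response. No detection calls come with the values, and 4 of the 32 genes (PEX18, DCI1, PXA1 and CTA1) had a mean level in the dimmest 25% of probe sets. Array medians lay between 7.34 and 7.56. Mixture replicate 5 stood apart, with a mean correlation of 0.922 with the other mixtures, against 0.963 or higher for every other array and its group. This array was the lowest mixture for 24 of the 32 genes (75.0%) and for 54.5% of all 5656 genes. The mixture comparisons are therefore also given without it, and so are the counts of calls in the other comparisons, to whose shared estimate of the spread this array contributes. STE2, an a-specific gene, was at 10.93 ± 0.16 in RM haploids and 6.06 ± 0.07 in BY haploids (SD, n = 3 each). The alpha-specific SAG1 was at 6.90 ± 0.34 in RM haploids and 11.94 ± 0.20 in BY haploids. Mating type therefore differed between the haploid strains, and its part in the strain differences below cannot be told apart from strain background in haploids.

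**Figure D1:**
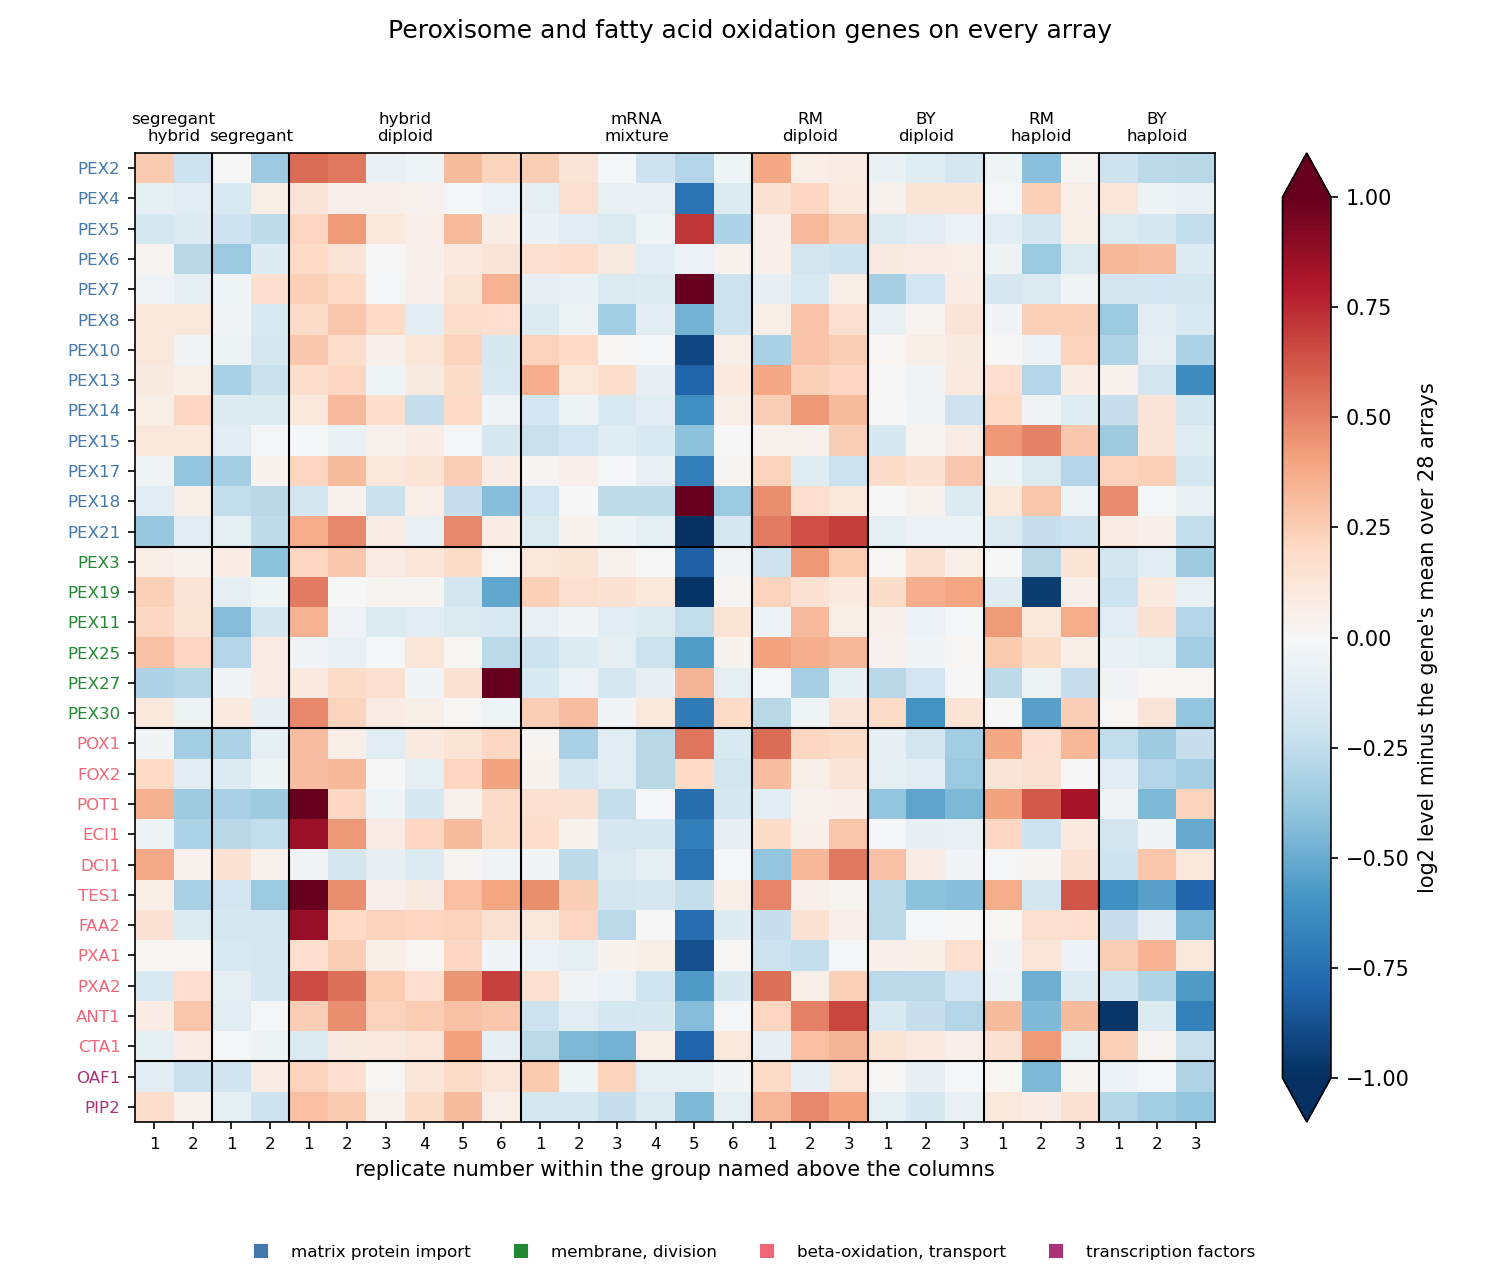
Deviation of each of the 32 genes (down the page, coloured by role) from its own mean over 28 arrays (log2), for each array (across, grouped as named above the columns). Mixture replicate 5 is the dark column, lowest of the mixtures for 24 of the 32 genes, and the RM columns are redder than the BY columns for PIP2, POX1, ANT1 and TES1.

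The first comparison asked how the strains differ. Of the 2 oleate transcription factors, PIP2 was higher in RM in haploids and in diploids, and no call was made for OAF1. Among the enzymes and carriers of fatty acid oxidation, POX1 and ANT1 were higher in RM at both ploidies, TES1 was called in haploids and PXA2 in diploids. Among the import genes, PEX15 and PEX8 were higher and PEX6 lower in RM haploids, and PEX21 was higher in RM diploids. No gene of membrane biogenesis or division was called in either comparison.

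In haploids 6 of the 32 genes were higher and 1 lower in RM (limma, adjusted p under 0.05 over all probe sets), where 12.1% of the 5656 genes were called higher and 5.23% lower. The median difference of the 32 was 0.14, and that of all 5656 genes 0.07. In diploids 5 were higher and 0 lower, where 9.83% of all genes were called higher and 8.45% lower, and the medians were 0.14 and 0.00. For any direction 17.4% of all genes were called in haploids and 18.3% in diploids, so the share of these genes with a call was near that of all genes. The arrays of the strains did not overlap for 12 of the 32 genes in haploids, 11 higher and 1 lower, where this held for 35.0% of all genes (22.6% higher and 12.4% lower). In diploids they did not overlap for 17, 15 higher and 2 lower, where this held for 50.8% (25.9% higher and 24.9% lower). The number of calls was lower whenever 1 array of the compared groups was left out. In haploids it was 4 without BY haploid replicate 1 and 3 without RM haploid replicate 3. In diploids it was 3 without BY diploid replicate 1 or RM diploid replicate 1, and 2 without BY diploid replicate 2 or 3 or RM diploid replicate 3. A fit on the compared groups alone called 4 in haploids and 9 in diploids, and without mixture replicate 5 in the shared spread the counts were 10 and 9. The share of all genes called was not taken under these changes, so these counts are not set against it.

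At an unadjusted p under 0.05 the genes numbered 11 in haploids and 9 in diploids, and all but PEX6 were higher in RM. Over all genes the share at that level was 28.2% in haploids and 30.2% in diploids. Probes on this platform follow the reference genome, which BY matches, so a lower RM transcript level and a weaker fit of RM transcripts to the probes cannot be told apart.

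PIP2, the partner of Oaf1 that is itself induced by oleate, was at 7.44, 7.41 and 7.49 on the RM haploid arrays, against 7.05, 6.99 and 6.94 on the BY haploid arrays. In diploids it was at 7.67, 7.82 and 7.74 in RM, against 7.24, 7.18 and 7.26 in BY. The arrays of the strains did not overlap at either ploidy. The differences were 0.45 ± 0.10 in haploids (SE, adjusted p = 0.0025) and 0.52 ± 0.10 in diploids (adjusted p = 0.00076), which are 1.37-fold and 1.43-fold.

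OAF1, the oleate-binding partner, was at 7.99, 7.52 and 8.0 in RM haploids, against 7.91, 7.95 and 7.67 in BY haploids. In diploids it was at 8.16, 7.89 and 8.09 in RM, against 7.98, 7.89 and 7.96 in BY. The strains overlapped at both ploidies. The differences were -0.01 ± 0.13 (95% interval -0.28 to 0.27) and 0.10 ± 0.13 (-0.17 to 0.38), so that a difference of the size seen for PIP2 lies outside both intervals.

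ANT1 encodes the peroxisomal carrier that brings ATP into the organelle for the activation of fatty acids. It was at 9.51, 8.75 and 9.51 in RM haploids, against 8.22, 9.06 and 8.52 in BY haploids, where RM replicate 2 lay below BY replicate 2. Its diploid levels were 9.41, 9.70 and 9.86 in RM, against 9.04, 8.96 and 8.90 in BY, with no overlap. The differences were 0.66 ± 0.19 (adjusted p = 0.015) and 0.69 ± 0.19 (adjusted p = 0.011). The call in haploids was lost when any 1 of 4 arrays was left out, with an adjusted p of up to 0.13 (BY haploid replicate 1 left out), and also in a fit on the haploids alone (0.13). In diploids it was lost without RM diploid replicate 3 (0.064).

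POX1 encodes acyl-CoA oxidase, the first enzyme of the cycle. Its probe set with the highest mean was at 7.21, 6.99 and 7.16 in RM haploids, against 6.58, 6.47 and 6.59 in BY haploids. Diploids had 7.38, 7.03 and 7.01 in RM, against 6.74, 6.64 and 6.48 in BY, again with no overlap. The differences were 0.57 ± 0.17 (adjusted p = 0.017) and 0.52 ± 0.17 (adjusted p = 0.033). Leaving out BY haploid replicate 2, RM haploid replicate 1 or RM haploid replicate 3 ended the haploid call (adjusted p up to 0.065). The diploid call ended without BY diploid replicate 2 or 3 or RM diploid replicate 1 (up to 0.18). This probe set is of a kind that can share sequence with other genes, so its value is uncertain. Of the other 3 probe sets of POX1, 1 also passed, with 0.77 ± 0.25 in haploids (adjusted p = 0.032) and 0.73 ± 0.25 in diploids (adjusted p = 0.045). The remaining 2 gave 0.27 ± 0.24 and 0.24 ± 0.41 in haploids, and 0.26 ± 0.24 and 0.41 ± 0.41 in diploids, without a call.

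TES1, the peroxisomal acyl-CoA thioesterase, was at 9.09, 8.54 and 9.35 in RM haploids, against 8.11, 8.18 and 7.93 in BY haploids. The difference of 0.92 ± 0.23 (adjusted p = 0.0047) was the largest among the 32 genes in haploids. In diploids TES1 was at 9.21, 8.77 and 8.75 in RM, against 8.46, 8.31 and 8.30 in BY. Those arrays did not overlap either, but the difference of 0.55 ± 0.23 did not pass (adjusted p = 0.10).

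PXA2 forms, with Pxa1, the ABC transporter that carries long-chain acyl-CoA into peroxisomes. In diploids it was at 7.01, 6.52 and 6.70 in RM, against 6.19, 6.19 and 6.27 in BY. The difference was 0.53 ± 0.17 (adjusted p = 0.037), and leaving out any array but RM diploid replicate 2 ended the call (adjusted p up to 0.21). In haploids it was at 6.40, 5.97 and 6.32 in RM, against 6.25, 6.16 and 5.89 in BY, a difference of 0.13 ± 0.17 with overlap. Its partner PXA1 gave -0.23 ± 0.17 in haploids and -0.25 ± 0.17 in diploids.

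The other genes of this group had no strain call. POT1, the thiolase of the last step, was at 6.91, 7.12 and 7.33 in RM haploids, against 6.47, 6.06 and 6.73 in BY haploids. The groups did not overlap, and the difference of 0.70 ± 0.26 had an adjusted p of 0.062. FOX2, the multifunctional enzyme of the middle steps, gave 0.34 ± 0.14 in haploids and 0.36 ± 0.14 in diploids (adjusted p = 0.097 and 0.086). ECI1 and DCI1, isomerases for unsaturated fatty acids, gave 0.27 ± 0.19 and -0.01 ± 0.19 in haploids. FAA2, which activates medium-chain fatty acids, gave 0.37 ± 0.20, and CTA1, the peroxisomal catalase, 0.15 ± 0.20. In all, 9 of the 11 enzyme and carrier genes lay above 0 in haploids and 10 of 11 in diploids, with medians of 0.34 and 0.36. Of all 5656 genes 3377 lay above 0 in haploids and 2846 in diploids.

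**Figure D2:**
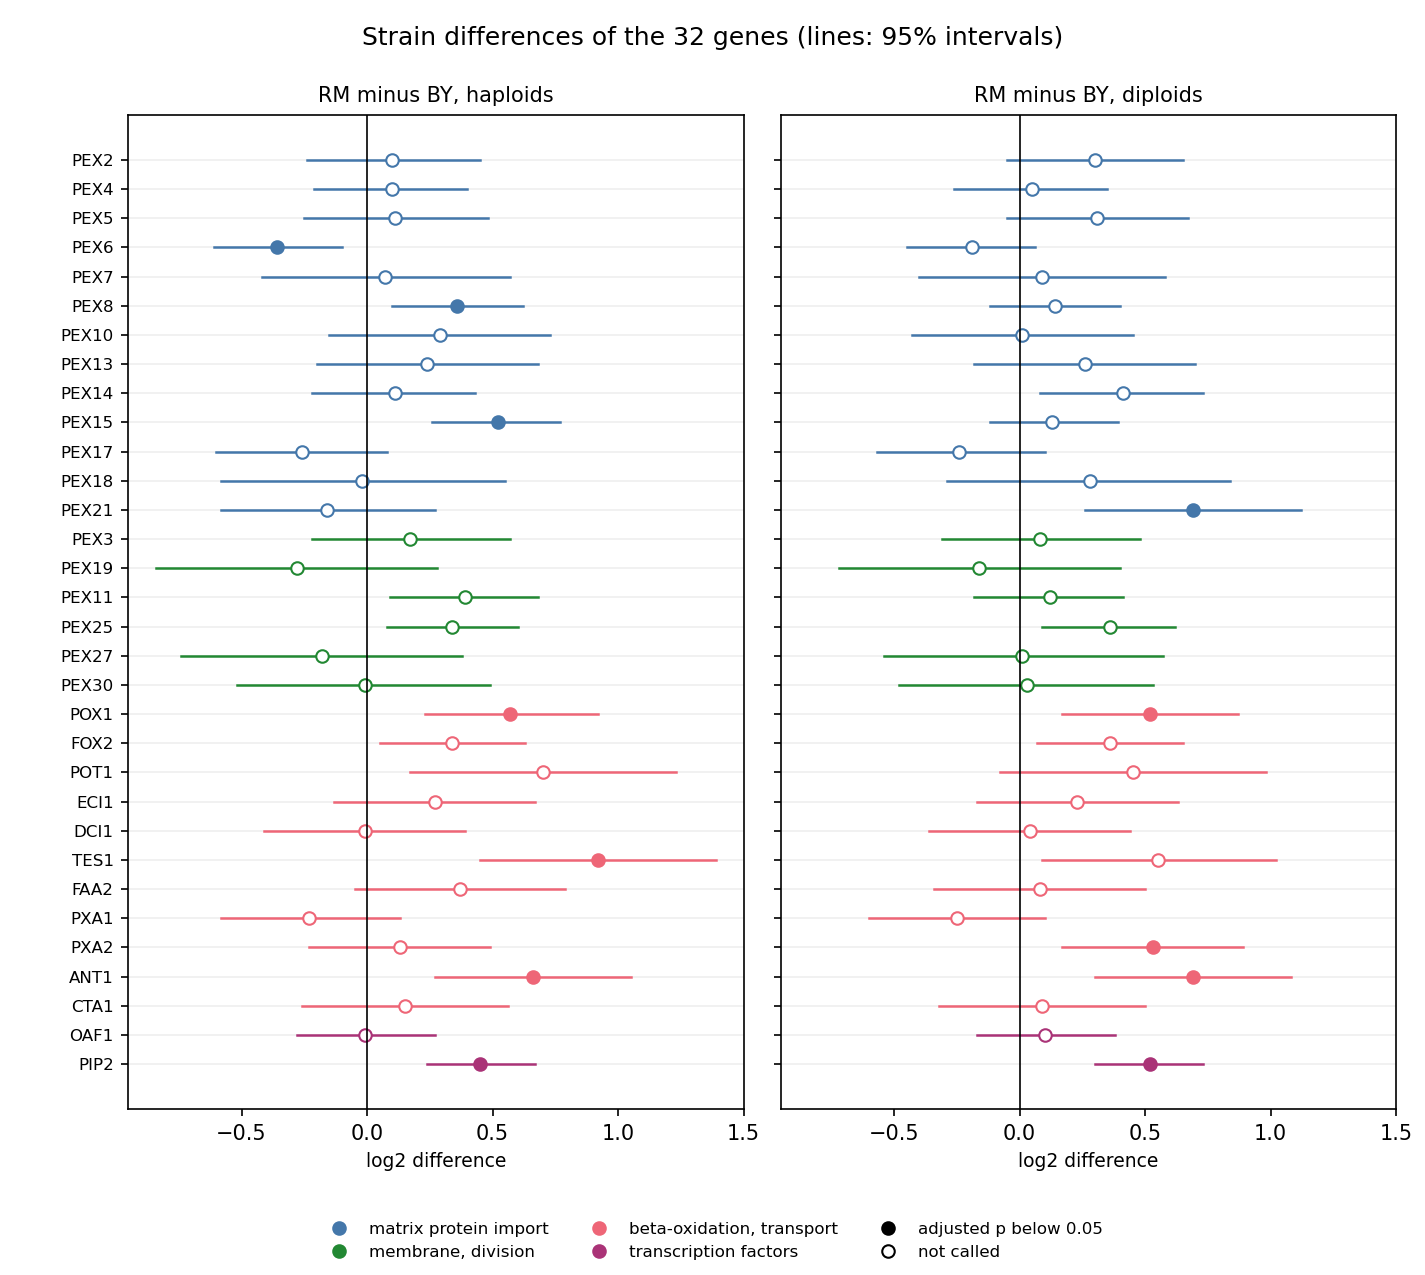
RM minus BY difference (log2, horizontal axis) of each of the 32 genes, in haploids (left) and diploids (right), with 95% intervals as lines and filled points for calls. PIP2, POX1 and ANT1 are filled on both sides, and most enzyme and carrier genes lie right of 0.

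Among the import genes the calls went in both directions. PEX15, the membrane anchor of the Pex6 ATPase, was at 8.17, 8.23 and 8.0 in RM haploids, against 7.38, 7.86 and 7.61 in BY haploids. The groups did not overlap, and the difference was 0.52 ± 0.12 (adjusted p = 0.0041, and 0.058 in a fit on these haploids alone). PEX6 itself, whose ATPase pulls the import receptor back out of the membrane, was lower in RM haploids by -0.36 ± 0.12 (adjusted p = 0.047), with overlapping arrays. PEX8, a peroxin on the inner side of the membrane, gave 0.36 ± 0.13 (adjusted p = 0.047). The calls of PEX6 and PEX8 were each lost when certain single arrays were left out, and without BY haploid replicate 1 both had an adjusted p of 0.21. A fit on the haploids alone ended both (0.20 and 0.14), and median centring ended that of PEX8 (0.12). In diploids PEX15, PEX6 and PEX8 gave 0.13 ± 0.12, -0.19 ± 0.12 and 0.14 ± 0.13 without a call.

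PEX21, a co-receptor of Pex7 for proteins with the amino-terminal targeting signal, was called in RM diploids. It was at 7.12, 7.24 and 7.29 in RM diploids, against 6.50, 6.54 and 6.54 in BY diploids. The difference was 0.69 ± 0.21 (adjusted p = 0.022), whereas the haploids gave -0.16 ± 0.21. Leaving out any array but RM diploid replicate 1 ended the diploid call (adjusted p up to 0.067). The other co-receptor, PEX18, gave 0.28 ± 0.27 in diploids. The receptors themselves, PEX5 and PEX7, gave 0.31 ± 0.17 and 0.09 ± 0.24 in diploids. The docking genes PEX13, PEX14 and PEX17 gave 0.26 ± 0.21, 0.41 ± 0.16 and -0.24 ± 0.16. The ubiquitin ligase genes PEX2 and PEX10 and the ubiquitin-conjugating enzyme PEX4 gave 0.30 ± 0.17, 0.01 ± 0.21 and 0.05 ± 0.15.

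For the 6 genes of membrane biogenesis and division the differences ran between -0.28 and 0.39 in haploids and between -0.16 and 0.36 in diploids. PEX25, needed for peroxisome proliferation, gave 0.34 ± 0.13 in haploids and 0.36 ± 0.13 in diploids (adjusted p = 0.068 and 0.056), with no overlap between the strains at either ploidy. PEX11, which acts in division, gave 0.39 ± 0.14 in haploids (adjusted p = 0.067) and 0.12 ± 0.14 in diploids. PEX3 and PEX19, which insert membrane proteins, gave 0.17 ± 0.19 and -0.28 ± 0.27 in haploids. The division gene PEX27 and the membrane-shaping gene PEX30 gave -0.18 ± 0.27 and -0.01 ± 0.24.

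Haploid and diploid strain differences come from separate arrays. Across the 32 genes they correlated with r = 0.63, and across all 5656 genes with r = 0.67. Genes are not independent replicates, so no p is given. Of the 32 genes 81.2% had the same sign at both ploidies, and of all genes 71.5%. Called in the same direction at both ploidies were 3 of the 32 genes (POX1, ANT1 and PIP2), and 525 of all 5656 genes.

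**Figure D3:**
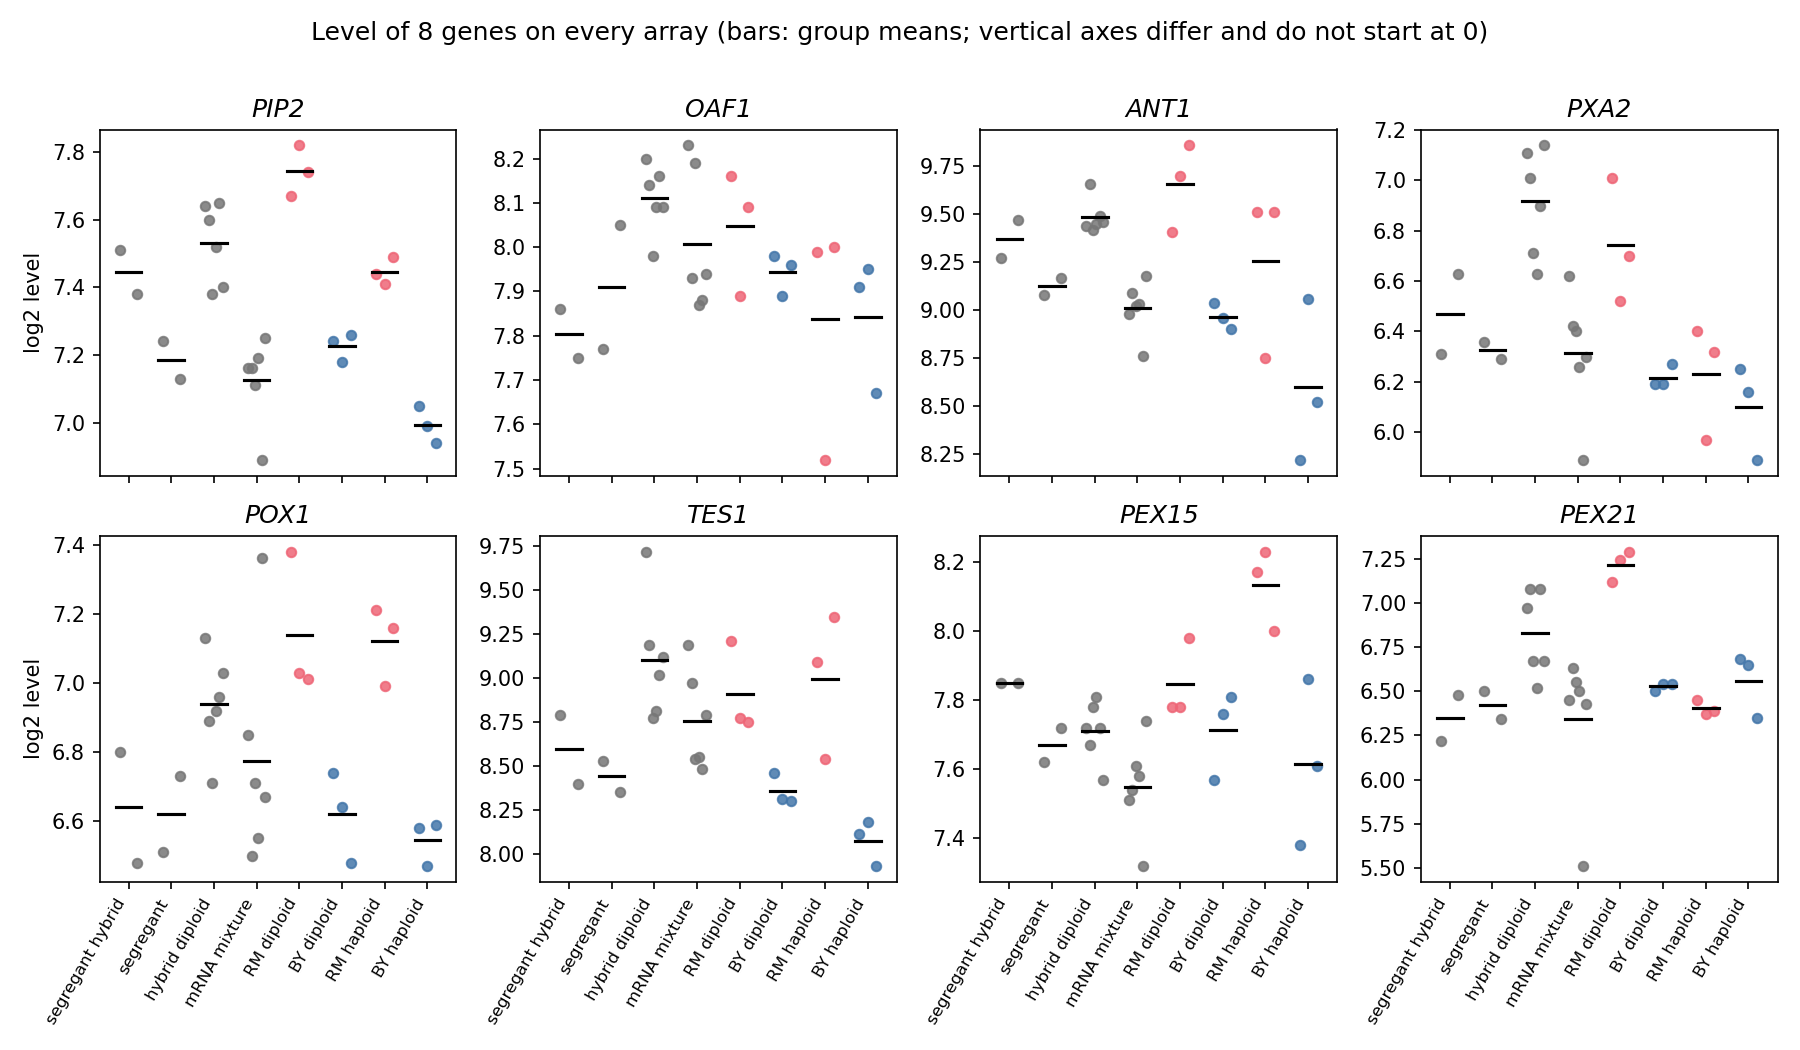
Level (log2, vertical axis, own scale in each panel) of 8 genes on every array, by group, with group means as bars. PIP2 of RM lies above PIP2 of BY without overlap at either ploidy, OAF1 of the strains overlaps, and PEX21 is highest in RM diploids.

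Ploidy was compared within each strain. The diploids also had lower levels of mating genes (GPA1 was at 6.11 ± 0.07 in RM diploids and 8.09 ± 0.07 in RM haploids), and mating type cannot be told apart from ploidy here. In RM, PEX21 was higher in diploids and was the only call. In BY no gene was called. PEX21 was at 7.12, 7.24 and 7.29 in RM diploids, against 6.45, 6.37 and 6.39 in RM haploids. The difference was 0.81 ± 0.21 (limma adjusted p = 0.012, 1.76-fold). Of the 32 genes this was 1, where 7.64% of all genes were called for ploidy in RM and 4.92% were called higher. Without mixture replicate 5 in the shared spread PXA2 and PIP2 were called as well, a count of 3 in RM, and the count in BY stayed 0. No share of all genes was taken for that fit.

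For BY the count of 0 from limma compares with 3.50% of all genes called, and 1 of the 32 genes, PIP2, had an unadjusted p under 0.05, against 12.7% of all genes. PIP2 lay above every haploid array on every diploid array of the same strain, by 0.23 ± 0.10 in BY (adjusted p = 0.27) and 0.30 ± 0.10 in RM (adjusted p = 0.085), and passed neither test. PXA2 gave 0.51 ± 0.17 in RM (adjusted p = 0.072) and 0.12 ± 0.17 in BY. POT1 gave -0.62 ± 0.26 in RM and -0.37 ± 0.26 in BY. The median ploidy difference of the 32 genes was 0.10 in BY and 0.09 in RM, and that of all genes 0.13 and 0.05. Over all probe sets the BY median was 0.11 as deposited and 0.01 after centring each array, with no call for the 32 genes in either.

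Whether the strain difference itself depends on ploidy was tested as an interaction, with the haploid strain difference subtracted from the diploid one. With limma 0 of the 32 genes passed, against 1.82% of all genes, and 2 had an unadjusted p under 0.05, against 10.4% of all genes. For PEX21 the difference moved by 0.85 ± 0.29 (adjusted p = 0.18) and for PEX15 by -0.38 ± 0.18 (adjusted p = 0.44). PEX21 passed when the fit held only these 4 groups, after quantile normalization, and without mixture replicate 5 in the shared estimate of the spread. For PIP2 the value was 0.06 ± 0.15 (95% interval -0.24 to 0.37).

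Hybrid diploids were set against the mRNA mixtures, which hold transcripts of both strains that were never in the same cell. The hybrids had higher levels of 9 of the 32 genes and lower levels of 0 (limma, adjusted p under 0.05). These were 6 of the 11 enzyme and carrier genes (PXA2, ECI1, ANT1, FAA2, CTA1 and FOX2), PIP2, and the import genes PEX21 and PEX8. Of all genes 22.0% were called higher and 10.7% lower, 32.8% in all, so the share called higher was near that of all genes. The median difference of the 32 was 0.26, and that of all genes 0.08. Of the 32 genes 31 lay above 0, and of all 5656 genes 3475. The exception was PEX18 at -0.18 ± 0.19. These values include mixture replicate 5, where PEX18 was at 7.44, against 5.84 to 6.21 on the other mixtures. Its medians were 6.01 in hybrids and 5.99 in mixtures. By median only PEX11, PEX19 and PEX30 were lower in hybrids (9.40, 7.22 and 7.79) than in mixtures (9.43, 7.33 and 7.87). The number above 0 was not counted without mixture replicate 5.

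The hybrids and the mixtures differ in more than allele mixing. GPA1, a gene of haploid cells, was at 5.96 ± 0.07 in hybrids and 8.20 ± 0.18 in mixtures (SD, n = 6 each), beside 8.09 ± 0.07 in RM haploids and 8.11 ± 0.14 in BY haploids. STE2 was at 6.0 ± 0.14 in hybrids and 9.91 ± 0.14 in mixtures, and STE3, the a-factor receptor of alpha cells, at 7.24 ± 0.11 in hybrids and 10.17 ± 0.10 in mixtures. The mixtures thus carried the marker transcripts of haploid cells, and ploidy cannot be told apart from the joining of the genomes in this comparison.

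PXA2 ran from 6.63 to 7.14 with a median of 6.96 in hybrids, against 5.89 to 6.62 with a median of 6.35 in mixtures. All 6 hybrid arrays lay above all 6 mixtures, by 0.60 ± 0.12 on average (adjusted p = 0.00058). PIP2 ran from 7.38 to 7.65 with a median of 7.56 in hybrids, against 6.89 to 7.25 with a median of 7.16 in mixtures. Its arrays did not overlap either, and the difference was 0.41 ± 0.07 (adjusted p = 0.00016). ANT1 ran from 9.42 to 9.66 with a median of 9.46 in hybrids, against 8.76 to 9.18 with a median of 9.02 in mixtures. This was again without overlap, with a difference of 0.48 ± 0.13 (adjusted p = 0.0088). In all 4 of the 32 genes had no overlap, the fourth being the docking gene PEX17, which was not called (0.30 ± 0.11), where this held for 17.3% of all genes (13.2% higher and 4.05% lower).

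The other 6 called genes overlapped between the groups. ECI1 ran from 7.45 to 8.22 with a median of 7.63 in hybrids, against 6.68 to 7.54 with a median of 7.24 in mixtures (0.50 ± 0.14, adjusted p = 0.0071). FAA2 ran from 6.98 to 7.70 with a median of 7.05 in hybrids, against 6.07 to 7.04 with a median of 6.76 in mixtures (0.46 ± 0.14, adjusted p = 0.019). Hybrid replicate 1 held the highest value of both, and without it FAA2 gave 0.34 (adjusted p = 0.058). PEX21 ran from 6.52 to 7.08 with a median of 6.82 in hybrids, against 5.51 to 6.63 with a median of 6.48 in mixtures (0.49 ± 0.15, adjusted p = 0.014). PEX8 ran from 8.48 to 8.86 with a median of 8.76 in hybrids, against 8.11 to 8.53 with a median of 8.41 in mixtures (0.37 ± 0.09, adjusted p = 0.0026). In PEX21, PEX8, ECI1 and FAA2 the lowest mixture was replicate 5.

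CTA1 gave 0.38 ± 0.14 (adjusted p = 0.044) and FOX2 0.28 ± 0.10 (adjusted p = 0.035). CTA1 ran from 5.91 to 6.46 in hybrids, against 5.26 to 6.16 in mixtures, and lost its call without any of 8 arrays, with an adjusted p of up to 0.12 (hybrid replicate 5 left out) and of 0.10 without mixture replicate 5. Quantile normalization also ended it (0.26, adjusted p = 0.12), as did a fit on these groups alone, a replicate block and a variance trend (adjusted p of 0.051 to 0.086). FOX2 ran from 8.49 to 8.99 in hybrids, against 8.31 to 8.78 in mixtures, and lost its call when any of 8 arrays was left out (adjusted p up to 0.088). Without mixture replicate 5 the count of genes called higher was 11, and the share of all genes called was not taken without it. The differences were then 0.52 for PXA2, 0.36 for PIP2, 0.43 for ANT1, 0.39 for ECI1, 0.33 for FAA2, 0.32 for PEX21, 0.32 for PEX8 and 0.34 for FOX2, and all 8 kept their calls (adjusted p up to 0.043). A fit on the hybrids and mixtures alone called 5, which were PEX8, ECI1, PXA2, ANT1 and PIP2. The values for OAF1 were 7.98 to 8.20 in hybrids, against 7.87 to 8.23 in mixtures (0.10 ± 0.09, 95% interval -0.09 to 0.30).

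**Figure D4:**
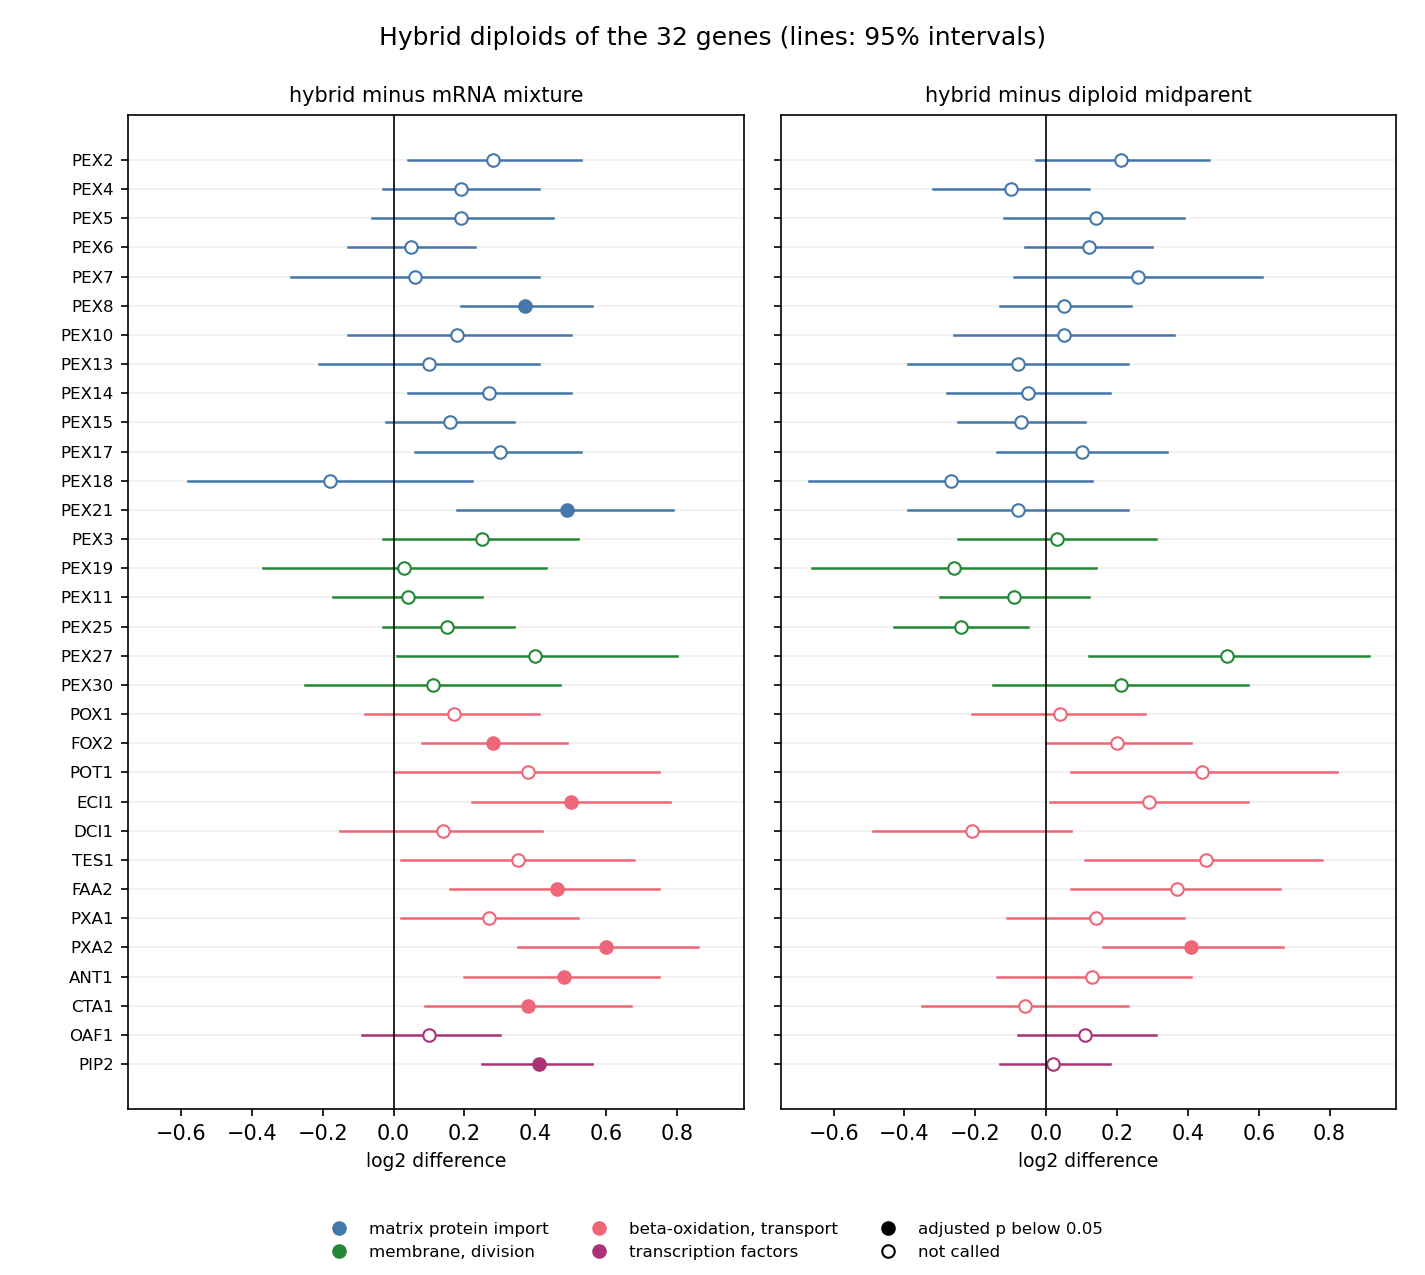
Difference (log2, horizontal axis) of the 32 genes in hybrid diploids against mRNA mixtures (left) and against the diploid midparent (right), with 95% intervals as lines and filled points for calls. On the left 31 of the 32 points lie right of 0, and on the right PXA2 is the only filled point.

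Against the diploid parents, the hybrids were compared with the log2 of the mean of the RM and BY diploid levels. PXA2 was above this midparent by 0.41 ± 0.12 (adjusted p = 0.023, 1.33-fold) and was the only call, where 21.8% of all genes were called, 9.05% higher and 12.8% lower. Its hybrid range of 6.63 to 7.14 compares with an RM diploid range of 6.52 to 7.01 and a BY diploid range of 6.19 to 6.27. The call ended without any of 5 arrays (hybrid replicate 1, 2 or 6, or RM diploid replicate 2 or 3), and the highest adjusted p was 0.087. The count was 4 without hybrid replicate 4, 3 without RM diploid replicate 1 and 2 without hybrid replicate 3.

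PIP2 differed from the midparent by 0.02 ± 0.07 (95% interval -0.13 to 0.18) and ANT1 by 0.13 ± 0.13. TES1 gave 0.45 ± 0.16, FAA2 0.37 ± 0.14, POT1 0.44 ± 0.18 and ECI1 0.29 ± 0.14, with adjusted p-values of 0.058, 0.078, 0.094 and 0.14. PEX27 gave 0.51 ± 0.19 (adjusted p = 0.062), where hybrid replicate 6 was at 8.27 and the other hybrids at 6.62 to 6.84. PEX25 gave -0.24 ± 0.09 (adjusted p = 0.066). Without mixture replicate 5 in the shared spread 7 genes were called, 6 higher and 1 lower, and these were PEX7, PEX25, PEX27, POT1, TES1, FAA2 and PXA2. With a replicate block the call covered 5 genes, POT1, ECI1, TES1, FAA2 and PXA2. For these changed fits the share of all genes called was not taken. The mean hybrid level lay above both diploid parents for 14 of the 32 genes, between them for 11 and below both for 7. Over all genes these shares were 26.6%, 33.9% and 39.5%.

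The mixtures were also set against the haploid midparent, although the labels do not say which cells gave the mRNA. PEX15 was lower in the mixtures by -0.35 ± 0.09 (adjusted p = 0.018) and was the only call, where 4.51% of all genes were called and 3.47% were called lower. PEX15 ran from 7.32 to 7.74 in mixtures, against 8.0 to 8.23 in RM haploids and 7.38 to 7.86 in BY haploids, so that every mixture lay below every RM haploid array. The call was absent with a replicate block, in a fit on these groups alone, and without RM haploid replicate 2 (adjusted p = 0.064). CTA1 joined it without mixture replicate 4 or 6 or RM haploid replicate 3, for a count of 2. Without mixture replicate 5 PEX15 gave -0.30 (adjusted p = 0.024). The median of the 32 genes was -0.07, and that of all genes -0.04.

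The hybrid arrays differed among themselves. Hybrid replicate 1 was the highest hybrid for 13 of the 32 genes (40.6%), against 27.9% of all genes. On that array TES1 was at 9.72, ECI1 at 8.22, POT1 at 7.65 and FAA2 at 7.70. The other 5 hybrids gave 8.77 to 9.19 for TES1, 7.45 to 7.80 for ECI1, 6.35 to 6.71 for POT1 and 6.98 to 7.06 for FAA2. Hybrid replicate 6 was the lowest for 13 of the 32 genes (40.6%), against 37.4% of all genes.

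With the group means removed and mixture replicate 5 left out, levels of ECI1 and TES1 correlated with r = 0.83 over 27 arrays, and PEX2 and TES1 with r = 0.88. POX1 and FOX2 gave r = 0.68, and ANT1 and PIP2 0.13. Across all 28 arrays with the groups kept, ANT1 and PIP2 gave r = 0.81. With the groups kept, the median over 496 pairs was 0.33, and 0.26 without mixture replicate 5. No median was taken with the group means removed, and the pairs named here are a choice from the 496. These arrays share groups and array-wide deviations, so the values are descriptions.

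The mean of the 2 segregant hybrid arrays lay between the RM and BY diploid means for 16 of the 32 genes, where this held for 52.0% of all genes. The mean of the 2 segregant arrays lay between the haploid means for 15, where this held for 45.5% of all genes. Of 64 values on the 2 segregant hybrid arrays 51 lay within the range of the diploid RM and BY arrays, 1 above and 12 below. Of 64 values on the 2 segregant arrays 51 lay within the range of the haploid RM and BY arrays, 3 above and 10 below. Such counts of single values were not taken over all genes. PIP2 was at 7.51 and 7.38 in segregant hybrids and at 7.24 and 7.13 in segregants. In both groups these values lay above every BY array and below every RM array of the same ploidy. TES1 was at 8.79 and 8.40 in segregant hybrids and at 8.53 and 8.35 in segregants. ANT1 was at 9.27 and 9.47 in segregant hybrids and at 9.08 and 9.17 in segregants, and POX1 at 6.80 and 6.48, and at 6.51 and 6.73. With STE3 at 10.91 to 10.93 and STE2 at 6.03 to 6.18, both segregants resembled the BY haploids in their mating genes.

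For context, 23 other genes of the peroxisome were measured. In RM haploids 5 of the 23 were higher and 1 lower than in BY, and in diploids 3 and 2. Of all genes 12.1% were called higher and 5.23% lower in haploids, and 9.83% and 8.45% in diploids. GPD1, a glycerol 3-phosphate dehydrogenase that is partly peroxisomal, was higher in RM by 0.85 ± 0.18 in haploids and 0.78 ± 0.18 in diploids (adjusted p = 0.0013 and 0.0029). FIS1, which acts in the division of mitochondria and peroxisomes, was higher by 0.49 ± 0.12 and 0.46 ± 0.12. STR3, a peroxisomal cystathionine beta-lyase of methionine synthesis, was higher in RM diploids by 2.26 ± 0.27 (adjusted p = 9.5e-07). FAA4, a long-chain acyl-CoA synthetase, was lower there by -0.67 ± 0.15. Hybrids had 7 of the 23 higher and 1 lower than the mixtures, with PNC1, a nicotinamidase found in peroxisomes, at 0.95 ± 0.13. In that comparison 22.0% of all genes were called higher and 10.7% lower.

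Carnitine shuttle genes, which move acetyl units from peroxisomes to mitochondria, had 2 higher and 1 lower of 5 in RM diploids and 1 and 1 in haploids. The carnitine transporter gene AGP2 was lower in RM by -1.53 ± 0.20 in haploids and -1.44 ± 0.20 in diploids. CAT2, the carnitine acetyltransferase, was higher in RM diploids by 0.64 ± 0.17. Among 15 glucose-repressed carbon genes 3 were higher and 1 lower in RM haploids, and 3 and 0 in diploids. Beside both lists, the shares of all genes were 12.1% higher and 5.23% lower in haploids, and 9.83% and 8.45% in diploids. ADR1, the activator of several oxidation genes, was at 8.44 ± 0.29 in RM haploids and 7.24 ± 0.11 in BY haploids (SD, n = 3 each), a difference of 1.19 ± 0.20 (adjusted p = 6.3e-05). In diploids it was at 7.20 ± 0.33 in RM and 7.40 ± 0.06 in BY, and the interaction was -1.39 ± 0.28 (adjusted p = 0.005). SUC2 went the other way in haploids. Its probe set with the highest mean was at 7.03 ± 0.28 in RM haploids and 8.33 ± 0.03 in BY haploids. The diploid levels of SUC2 were 8.38 ± 0.39 in RM and 8.66 ± 0.09 in BY. Of the members, PIP2, POX1 and ANT1 were higher in RM at both ploidies, and the part of ADR1 in these levels was not tested. Hybrids had 7 of the 15 carbon genes higher and 0 lower than the mixtures, with HXK1, hexokinase isoenzyme 1, at 1.16 ± 0.18. The shares of all genes there were 22.0% higher and 10.7% lower.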

How the data were processed

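The deposited file holds log2 levels per probe set, a scale judged from its range up to 14.67. The sources used here do not name the software that summarised and scaled the values. Sample columns left unused numbered 0. Of 9335 probe sets, 60 controls and 1 that read 0 throughout were dropped. The remaining 9274 comprised 6504 with 1 gene, 328 with several and 2442 with none. All 6504 matched the R64 annotation.

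The 24 arrays of 6 groups entered 1 fit of group means (limma 3.58.1, R 4.3.3, lmFit and eBayes). Tests were two-sided, with Benjamini-Hochberg adjustment across the 9274 and a threshold of 0.05. Midparents are log2 of the mean linear level, with delta-method standard errors. Segregant arrays stayed outside the fit. The members and lists were chosen with earlier results of these data known. Any member could be named. Per-array values or ranges cover OAF1, PIP2, members with a strain call over 0.5 without overlap, and members called in the interaction or hybrid comparisons. Those of POT1 and PEX27 fall outside this rule and were added after their values were seen. Up to 4 called genes per other list and comparison could be named.

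The fit was tested on simulated data with 200 of 9274 probe sets changed. Changes of 0.5 were recovered for 18.5% in each strain comparison, 13.0% for ploidy in BY and 12.5% in RM. The share was 0.0% for the interaction and 46.0% to 55.0% for the hybrid and mixture comparisons. Changes of 1.0 were recovered for 50.5% in the interaction and 79.0% to 95.0% elsewhere. Up to 9.76% of the calls were false (strain in diploids, changes of 0.5). In the data far larger shares of all genes were called, 17.4% and 18.3% for strain in haploids and diploids and 32.8% for hybrid minus mixture. The Benjamini-Hochberg cutoff depends on the share of probe sets that change. The recovered shares therefore hold for the simulated setting and do not give the recovery in those comparisons. The labels do not say whether replicate numbers pair the arrays. Same-numbered deviations correlated between -0.291 and 0.464 across pairs of groups. For groups sharing 3 numbers, 0 to 3 arrays correlated best with their own number, and for hybrids and mixtures 1 of 6. This does not settle a pairing, and the fit holds no replicate term. Alternatives covered scaling (quantile or median), the dim filter, the arrays fitted, a replicate block, a variance trend, 1 probe set per gene, other probe sets of POX1, log2 midparents and the omission of each array. Dropping mixture replicate 5 from the shared spread was added after seeing the data. Python 3.11.15 with matplotlib 3.10.9 drew the plots.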

Additional observations from a re-analysis of the deposited data

Results flagged for a closer look

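Single arrays that stood far from the other 5 of their group were looked for in the hybrids and mixtures, 64 sets of 6 values. A gap past Dixon's critical value at the 5% level was found 19 times, where chance gives about 3.2. Such gaps were not counted over all genes, so the 19 are not a result about these genes in particular. Mixture replicate 5 held 13 of these. Over all 5656 genes this array was the lowest mixture for 54.5% and the highest for 23.2%. It was far below the other mixtures for PEX3 (6.45), PEX4 (6.39), PEX10 (5.59), PEX17 (6.50), PEX19 (6.22), PEX21 (5.51), PEX30 (7.02), DCI1 (5.44) and PXA1 (5.56). It was far above them for PEX5 (7.84), PEX7 (8.40), PEX18 (7.44) and PEX27 (6.99). Hybrid replicate 1 was high for FAA2 (7.70), PEX11 (9.86) and POT1 (7.65), hybrid replicate 2 for ANT1 (9.66) and hybrid replicate 6 for PEX27 (8.27). Hybrid replicate 4 was low for PEX8 (8.48).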

How the results depend on the processing

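No called difference of the 32 genes changed sign under any alternative run. PIP2 kept its call for strain at both ploidies and for hybrid minus mixture under every alternative, as did TES1 for strain in haploids, PEX21 for ploidy in RM, and PXA2, ANT1, ECI1 and PEX8 for hybrid minus mixture. Counts moved more, and the cause was not tested. The share of all genes called was not taken under the alternatives, so the counts below are not set against it. Leaving out 1 array gave 3 to 6 calls for strain in haploids (7 with all arrays), 2 to 4 in diploids (5), 1 for ploidy in RM (1), 0 for ploidy in BY (0), 0 for the interaction (0), 0 to 4 for hybrid minus midparent (1), 7 to 11 for hybrid minus mixture (9) and 0 to 2 for mixture minus haploid midparent (1). Fits on the compared groups alone gave 4 calls in haploids, 9 in diploids, 2 for ploidy in RM, 1 for the interaction, 5 for hybrid minus midparent, 5 for hybrid minus mixture and 0 for mixture minus midparent. Without mixture replicate 5 in the shared spread the counts were 10 in haploids, 9 in diploids, 3 for ploidy in RM, 1 for the interaction and 7 for hybrid minus midparent. Quantile normalization gave 9 in haploids, 9 in diploids, 2 for ploidy in RM, 1 for the interaction and 4 for hybrid minus midparent. A pairing of the arrays by replicate number was not settled. With the replicate block, strain in haploids had 9 calls, ploidy in RM 2 calls, hybrid minus midparent 5 and mixture minus midparent 0. For hybrid minus midparent, 1 probe set per gene gave 4, and log2 midparents, median centring and leaving out the dimmest 25% of probe sets gave 2 each. With 3 arrays per group the precision is low: POT1 in haploids had no call at 0.70 (95% interval 0.17 to 1.23), so a missing call does not bound a difference.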
